A study of Caenorhabditis elegans with 36 samples.

Results

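The genes of the *C. elegans* mitochondrial genome were taken as every feature that the count tables place on the chromosome MtDNA, which gave 36 of the 31106 features. Ensembl annotates 12 of them as protein-coding genes, 22 as tRNA genes and 2 as rRNA genes. Small RNAs on these genes were counted in input and HRDE-1 IP libraries of 6 genotypes, with 3 biological replicates each and 36 libraries in all. The single mutants were *hrde-2(qe20)*, *simr-1(cmp36)* and *mut-2(ne298)*, and the double mutants were *mut-2(ne298); hrde-2(qe20)* and *simr-1(cmp36) mut-2(cmp306)*. The wild-type strain and all the mutants carried *hrde-1(tor125)*, in which the endogenous gene is fused to GFP and 3xFLAG, and no IP from an untagged strain was analysed here. The *mut-2* allele of *simr-1 mut-2* differs from the one in *mut-2*, so that comparison is also one between alleles. About 100000 whole adults, grown for 68 h at 20 °C, went into each replicate. The IP and the input that share a replicate number came from 1 lysate.

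The mitochondrial genome encodes core subunits of the respiratory chain and of ATP synthase, together with the rRNAs and tRNAs that translate them inside the organelle. It is transcribed in the mitochondrion by its own RNA polymerase, apart from the nuclear genes. HRDE-1 is a germline Argonaute that acts in the nucleus and binds small RNAs that RNA-dependent RNA polymerases copy from target transcripts. The comparison of IP with input therefore sets the share of counts from an organelle transcriptome in the IP of a nuclear Argonaute against its share in the input. It does not separate bound small RNA from RNA carried along in the IP. HRDE-2 and SIMR-1 are germline proteins of the small RNA pathways that supply HRDE-1, and MUT-2 is a nucleotidyltransferase required for making one class of these small RNAs.

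All 36 genes lie on the plus strand of MtDNA in WormBase release WS258, and the order of roles below follows the complexes. The complex I subunits are ND6 (MtDNA:113-549), ND4L (MtDNA:549-783), ND1 (MtDNA:1763-2635), ND2 (MtDNA:3389-4269), ND4 (MtDNA:6506-7808), ND3 (MtDNA:11356-11691) and ND5 (MtDNA:11691-13272). CYTB (MtDNA:4504-5621) encodes the mitochondrial subunit of complex III. COX3 (MtDNA:5678-6449), COX1 (MtDNA:7827-9428) and COX2 (MtDNA:9649-10348) encode the catalytic core of complex IV, and ATP6 (MtDNA:2634-3235) a membrane subunit of ATP synthase. The rRNA genes are WBGene00014454 (MtDNA:898-1593) and WBGene00014472 (MtDNA:10403-11354), the shorter and the longer one. The tRNA genes run from 52 to 62 nt and are given by identifier, since the annotation used here names no amino acid for them. In all, 15 of the 36 genes overlap a neighbour, and only ND2 and the tRNA gene WBGene00014460 (MtDNA:3362-3416) do so by more than 10 nt, so reads at that boundary cannot be assigned to one of the pair. Reads were counted on either strand, so sense fragments and antisense small RNAs of a gene cannot be told apart.

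The libraries held between 4276687 and 17449202 counts on genes, with a median of 10221148. Of these, 588 to 4210 counts fell on the mitochondrial genes in an IP library, and the lowest number came from wild-type replicate 1. Small RNAs on *simr-1* were at 29.8 to 35.8 RPM (counts per 1000000 counts on genes) in *simr-1* inputs and 25 to 33 RPM in *simr-1 mut-2* inputs, against 111 to 391 RPM in the inputs of the other genotypes. Small RNA counts on *hrde-2* and *mut-2* did not separate all mutants from the other genotypes and do not check these alleles, and small RNAs do not measure mRNA markers of tissues. Library names ending in "-2" occur for all libraries of the genotypes with a *mut-2* allele, for wild-type replicate 2 and for *hrde-2* replicate 1, and what the ending marks is not given in the sources used here.

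In the inputs, a few genes carried most of the mitochondrial small RNA. COX1, ND5, ND2, the longer rRNA WBGene00014472 and the tRNA WBGene00014451 (MtDNA:58-111) held 59.9 to 66.5% of the mitochondrial counts of a genotype's inputs, and the same 5 genes held 65.6 to 68.6% in its IPs. Protein-coding genes made up between 59.5 and 70.2% of the mitochondrial counts in the group means, with no fraction or genotype in which they were a minority. Scaled to gene length, the order was different, because the tRNA genes are short. WBGene00014451 was the highest gene in all 6 genotypes, with a mean of 27532 RPM per kb in *mut-2* inputs and 8530 RPM per kb in wild-type inputs. ND2 was the highest protein-coding gene, with a mean of 4244 RPM per kb in *mut-2* inputs and 1176 RPM per kb in wild-type inputs, and ND4L was the lowest, at 164 and 29.5 RPM per kb in the same groups. The median over the 22 tRNA genes was 419 RPM per kb in wild-type inputs, the 2 rRNA genes stood at 465 and 550 RPM per kb, and the median of the 12 protein-coding genes was 151 RPM per kb. A tRNA gene of about 2 read lengths gives few positions for a small RNA, so these per-length levels describe how densely a gene was covered and are not transcript levels.

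Small RNAs from the mitochondrial genome were depleted from the HRDE-1 IP in every lysate of every genotype. The mitochondrial share of all counts averaged 0.0328 ± 0.0081% in *hrde-2* IPs and 0.667 ± 0.102% in *hrde-2* inputs (SD, n = 3 each, as for the shares that follow). It averaged 0.0155 ± 0.0044% in *simr-1* IPs and 0.739 ± 0.059% in *simr-1* inputs. In *mut-2*, IPs averaged 0.0235 ± 0.0067% and inputs 1.98 ± 0.35%. The IP shares of these mutants all lay below 0.05%, and no IP library of any genotype came near an input library.

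The shares of the double mutants overlapped those of *mut-2*. The share averaged 0.0170 ± 0.0012% in *mut-2; hrde-2* IPs and 1.79 ± 0.13% in the inputs, and 0.0184 ± 0.0033% in *simr-1 mut-2* IPs and 1.62 ± 0.41% in the inputs. Wild-type had the lowest mean in both fractions, with 0.0036, 0.0158 and 0.0093% in its 3 IPs and 0.535, 0.621 and 0.645% in its 3 inputs. Among the wild-type IPs, replicate 1 was well below the others. Within a lysate, the share in the IP was between 15.5-fold lower than in the input (*hrde-2* replicate 3) and 148-fold lower (wild-type replicate 1), with a median of 75.0-fold over the 18 lysates.

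**Figure D1:**
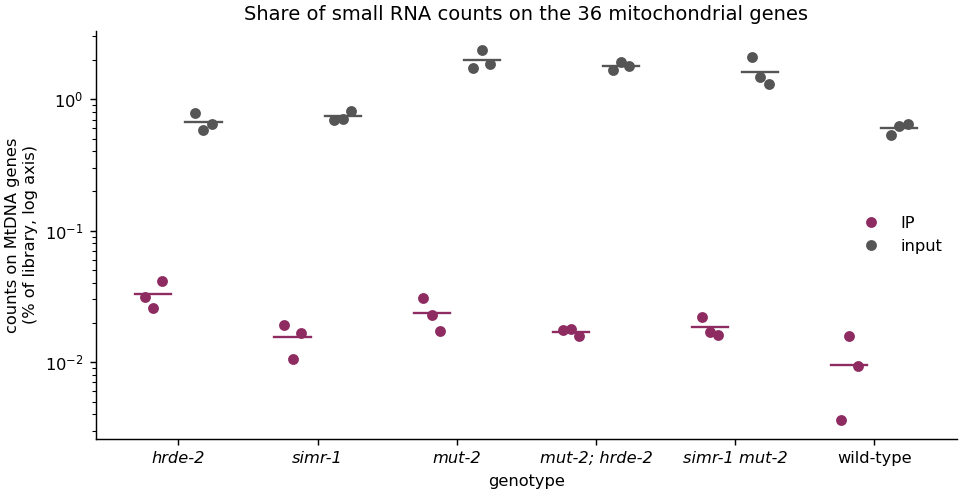
The share of all counts that fell on the 36 mitochondrial genes (percent, log axis) is plotted for each IP and each input library of the 6 genotypes, with a bar at each group mean and n = 3. Every IP library lies below every input library, and the inputs of the genotypes with a *mut-2* allele (1.3 to 2.37%) lie above those of the others (0.535 to 0.807%).

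COX1, the catalytic subunit of cytochrome c oxidase and one of the genes with the most mitochondrial counts, shows the pattern gene by gene. It had 60.1, 72.3 and 86.4 RPM in *hrde-2* IPs, against 1099, 914 and 948 RPM in the matching inputs. In *simr-1* it had 30.2, 20.8 and 22.6 RPM in the IPs, against 960, 1183 and 1063 RPM in the inputs, and in *mut-2* 55.4, 52.6 and 32.2 RPM in the IPs, against 2444, 3828 and 3081 RPM in the inputs. The wild-type IPs had 6.89, 29.1 and 16.4 RPM, against 756, 814 and 1026 RPM in wild-type inputs. COX1 was thus far lower in each IP than in its input, with wild-type IPs below those of the single mutants except for an overlap with *simr-1*. The fitted log2 difference was -3.98 ± 0.19 (SE) in *hrde-2*, -5.79 ± 0.18 in *simr-1*, -6.22 ± 0.24 in *mut-2*, -6.02 ± 0.13 in *mut-2; hrde-2*, -6.20 ± 0.27 in *simr-1 mut-2* and -5.29 ± 0.53 in wild-type.

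Tested gene by gene with edgeR's quasi-likelihood test, most mitochondrial genes passed as lower in the IP in each genotype, and none passed as higher. A gene was called when it differed at least 2-fold, with an adjusted p of at most 0.05 over all genes, and averaged 10 RPM or more in the fraction where it was higher. In *hrde-2*, 31 of 36 genes were lower, where 17.3% of all tested genes were lower. In *simr-1*, 30 of 36 were lower against 7.75% of all tested genes, and in *mut-2* 35 of 36 against 8.71%. In *mut-2; hrde-2*, 34 of 36 were lower against 11.3% of all tested genes, and in *simr-1 mut-2* 34 of 36 against 11.2%. In wild-type, 29 of the 35 genes that could be tested were lower against 16.7% of all tested genes. These shares are far above the background in all 6 genotypes. No gene was higher at an unadjusted p under 0.05 in the edgeR test, none was called higher by DESeq2, and the shares of all tested genes called higher were 26.5% in *hrde-2*, 4.98% in *simr-1*, 7.45% in *mut-2*, 1.56% in *mut-2; hrde-2*, 1.85% in *simr-1 mut-2* and 17.3% in wild-type.

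All the genes that were tested but not called were under 10 RPM in the inputs, and their adjusted p in edgeR's test was at most 0.00075. Over the called genes, the adjusted p ran from 4.9e-17 in *mut-2; hrde-2* to 0.0010 in *simr-1 mut-2*. On RPM alone, all 36 genes had every IP library below every input library in each genotype, which held for 32.8% of all genes in *hrde-2*, 19.7% in *simr-1*, 24.2% in *mut-2*, 29.1% in *mut-2; hrde-2*, 21.5% in *simr-1 mut-2* and 30.2% in wild-type. The median log2 difference over the mitochondrial genes was -5.11 in *hrde-2*, -6.50 in *simr-1*, -6.75 in *mut-2*, -7.10 in *mut-2; hrde-2*, -6.97 in *simr-1 mut-2* and -5.62 in wild-type. The median over all tested genes was between -0.34 and 0.15 in the same fits. Taken from the mean RPM, with a gene at 0 counts in all IPs of a genotype set to 3 counts per library, the median gene was 28.3-fold lower in *hrde-2*, 69.2-fold in *simr-1*, 97.3-fold in *mut-2*, 135-fold in *mut-2; hrde-2*, 107-fold in *simr-1 mut-2* and 62.3-fold in wild-type. Since an IP library is made up of different RNAs from its input, the fits were also scaled to the counts on nuclear snRNA and snoRNA genes, a choice made after seeing the data. This moved the median of all tested genes up, to between 1.37 and 3.39, and the mitochondrial medians to between -4.52 and -3.08, and the number of mitochondrial genes called lower was the same in each genotype.

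The complex I subunits differed widely in how far they were lowered. ND1 was among the 5 smallest differences of all 6 genotypes, between -5.77 in *mut-2; hrde-2* and -3.64 in *hrde-2* on the log2 scale. ND6 was among the 5 largest in 4 genotypes and lay between -9.14 in *mut-2* and -6.87 in *hrde-2*, but it had at most 8 counts in an IP library and 0 in 3 of the 18. ND5, the longest subunit, ran from -6.88 to -4.21, and ND2 from -8.29 to -5.63. ND4 (-7.40 to -5.65), ND3 (-7.18 to -5.07) and ND4L (-8.42 to -5.44) lay between ND6 and ND1 in all 6 genotypes.

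The other complexes covered a narrower range. CYTB, the complex III subunit, differed by -6.89 to -4.84 on the log2 scale. COX2 and COX3 differed by -6.72 to -4.78 and by -7.24 to -5.07, and ATP6 by -8.24 to -5.75. All these genes kept a measurable level in the IP. CYTB ran from 0.861 to 16.4 RPM over the 18 IPs and from 185 to 1071 RPM over the 18 inputs, and ATP6 from 0.554 to 4.40 RPM in IPs and from 63.1 to 631 RPM in inputs.

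The rRNA genes were close to each other in every genotype. WBGene00014454 lay between -6.62 and -4.61 on the log2 scale and WBGene00014472 between -6.60 and -4.62. WBGene00014472 had 37.3, 21.3 and 14.8 RPM in *mut-2* IPs, against 1256, 1683 and 1249 RPM in *mut-2* inputs. In wild-type it had 7.69, 11.5 and 9.21 RPM in IPs, against 598, 371 and 602 RPM in inputs.

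The tRNA genes spread the most. WBGene00014458 (MtDNA:3244-3305) was among the 5 smallest differences in all 6 genotypes, as was WBGene00014471 (MtDNA:10348-10401), next to COX2. WBGene00014460 was at the other end, among the 5 largest in 5 genotypes, with 0.435, 0.0815 and 0.379 RPM in *mut-2* IPs against 365, 435 and 235 RPM in *mut-2* inputs, a log2 difference of -10.21 ± 0.32. These IP values stand for 6, 1 and 6 counts, so the size of the largest differences is set by very few counts. WBGene00014457 (MtDNA:1707-1761) had 0 counts in all 3 *mut-2; hrde-2* IPs and 19.4 to 29.3 RPM in the inputs, which puts it at least 121-fold lower when each IP library is set to 3 counts. The fitted extremes of the other genotypes were WBGene00014457 at -8.63 and WBGene00014458 at -3.08 in *hrde-2*, WBGene00014469 at -9.51 and ND1 at -4.44 in *simr-1*, WBGene00014460 at -9.48 and ND1 at -5.59 in *simr-1 mut-2*, and WBGene00014460 at -7.96 and WBGene00014459 at -4.38 in wild-type. In *mut-2* the smallest was WBGene00014459 at -5.15, and in *mut-2; hrde-2* it was WBGene00014471 at -4.74.

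WBGene00014451, the tRNA with the highest level, was intermediate, with log2 differences of -6.79 to -4.30. It had 25.1, 19.8 and 18.2 RPM in *mut-2* IPs, against 1386, 1749 and 1326 RPM in *mut-2* inputs. The wild-type values were 1.54, 16.9 and 9.27 RPM in IPs, against 187, 564 and 631 RPM in inputs, and wild-type replicate 1 was the lowest library of both fractions. WBGene00014456 (MtDNA:1648-1702) and WBGene00014455 (MtDNA:1595-1646), which follow the shorter rRNA, differed by -7.31 to -4.99 and by -8.54 to -6.28.

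What remained in the IP followed the inputs in rank. Across the 36 genes, the mean IP level and the mean input level of a genotype had a Spearman rho of 0.911 to 0.954, given as a description, since genes are not independent points and both fractions share the gene lengths. An average of 10 RPM or more in the IP libraries was reached by 9 genes in *hrde-2*, 6 in *simr-1*, 8 in *mut-2*, 4 in *mut-2; hrde-2*, 6 in *simr-1 mut-2* and 2 in wild-type. The highest mean was 72.9 RPM in *hrde-2* and 17.6 RPM in wild-type, where the 2 genes were ND5 and COX1.

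The classes of mitochondrial RNA were lowered to a similar degree, and further than the nuclear rRNA, snRNA and snoRNA genes. Over the 18 lysates, the share of protein-coding genes was 14.8 to 165-fold lower in the IP (median 75.5), that of tRNA genes 17.1 to 197-fold (median 91.7) and that of rRNA genes 16.2 to 106-fold (median 56.8). The rRNA genes were lowered less than the tRNA genes in 17 of 18 lysates and less than the protein-coding genes in 16 of 18. The tRNA genes were lowered more than the protein-coding genes in 13 of 18. The order of the classes within a lysate was thus more regular than their ranges, which overlap.

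Among nuclear genes, the share of 20 rRNA genes was 2.27 to 15.2-fold lower in the IP (median 8.54), that of 129 snRNA genes 2.61 to 19.5-fold (median 4.45) and that of 346 snoRNA genes 2.19 to 11.3-fold (median 4.12). The mitochondrial fold exceeded each of these in 18 of 18 lysates. The 612 nuclear tRNA genes were the closest, 12.9 to 101-fold lower (median 40.2), and the fold of all mitochondrial genes exceeded theirs in 16 of 18 lysates. Taken alone, the mitochondrial rRNA and the mitochondrial protein-coding genes were each lowered less than the nuclear tRNA genes in some lysates. The shares of these classes do not come from a test, and whether the remainder of each class was bound to HRDE-1 or carried along in the IP was not tested.

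**Figure D2:**
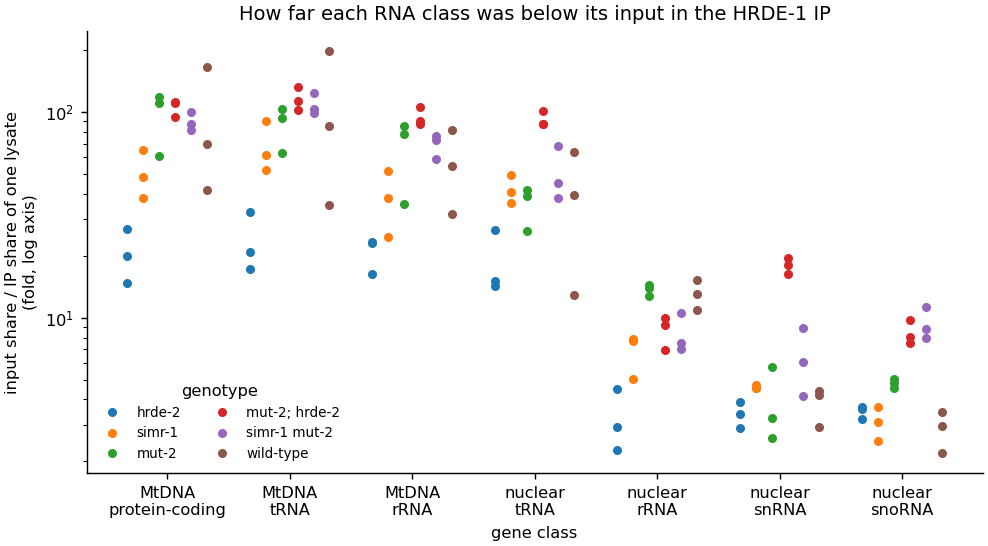
Each point is 1 lysate and gives the share of a class of RNA in the input divided by its share in the IP (fold, log axis), for the mitochondrial protein-coding, tRNA and rRNA genes and for nuclear rRNA, tRNA, snRNA and snoRNA genes, with the genotype by color. The mitochondrial classes have medians of 56.8 to 91.7 and the nuclear snRNA and snoRNA genes medians of 4.45 and 4.12.

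Nuclear genes whose proteins work in mitochondria differed less between IP and input than the mitochondrial genes did, and their direction varied with the genotype. In *hrde-2*, 57 of 69 genes for mitochondrial ribosomal proteins were higher in the IP and 0 lower, with a median log2 difference of 1.5, and in wild-type 3 were higher and 25 lower, with a median of -0.65. Of 37 nuclear genes for subunits of the respiratory chain and ATP synthase, 8 were higher and 1 lower in *hrde-2*, against 4 higher and 18 lower of 36 tested in wild-type, with medians of 0.49 and -1.09. Of 5 tested genes for the maintenance and expression of mitochondrial DNA, *rpom-1* (the mitochondrial RNA polymerase, 1.68), *mma-1* (1.83) and *polg-1* (the mitochondrial DNA polymerase, 1.28) were higher in the *hrde-2* IP. In the wild-type IP, *hmg-5* (-1.45), which encodes a protein that packages mitochondrial DNA, *mma-1* (-1.10) and *polg-1* (-1.31) were lower. The medians of these 3 lists in wild-type (-0.65, -1.09 and -1.10) were below 0, as was that of the mitochondrial genes (-5.62). Over all tested genes, 26.5% were higher in the *hrde-2* IP and 16.7% were lower in the wild-type IP. In the genotypes other than *hrde-2* and wild-type, 1 to 4 of the ribosomal protein genes were higher and 0 lower (medians 0.23 to 0.31), 0 of the respiratory chain genes were higher and 1 to 6 lower (medians -0.39 to -0.10), and 0 of the maintenance genes were called.

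The IP difference was smaller in *hrde-2* than in wild-type for some of the mitochondrial genes. The interaction of fraction and genotype over the 12 libraries, tested with edgeR's quasi-likelihood test, called 7 of 36 genes as less lowered in *hrde-2* and 0 as more lowered. This fit had no term for the lysate that an IP and its input share, and the count with such a term is given below. The 7 genes are 19.4% of the 36, where 33.7% of all tested genes had higher enrichment in *hrde-2* and 36.1% lower. In this fit, the count by itself does not set the mitochondrial genes apart. The median over the 36 genes was 0.90 on the log2 scale and 31 fitted values were above 0, beside a median of -0.07 over all tested genes.

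The tRNA WBGene00014458 had the largest interaction. It was at 13.1, 7.13 and 14 RPM in *hrde-2* IPs and 84.4, 75.6 and 80.2 RPM in *hrde-2* inputs. In wild-type it was at 1.41, 2.14 and 0.843 RPM in IPs and 68.6, 33.4 and 46.0 RPM in inputs. The IP thus lay 5.72 to 10.6-fold below its input in *hrde-2* and 15.6 to 54.6-fold below in wild-type, without overlap. The interaction was 2.02 ± 0.43 on the log2 scale (adjusted p = 6.6e-04), and it was called in all 10 alternatives tried.

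COX1 and ND5 were the protein-coding genes with the largest interaction. COX1 was 18.3, 12.6 and 11-fold below its input in the *hrde-2* IPs, against 110, 28 and 62.6-fold in wild-type, with an interaction of 1.66 ± 0.51 (adjusted p = 0.0096 in edgeR's test). ND5 was at 31.6, 52.4 and 97.1 RPM in *hrde-2* IPs and 5.35, 25.9 and 21.7 RPM in wild-type IPs, and its interaction was 1.75 ± 0.63 (adjusted p = 0.022 in edgeR's test). The *hrde-2* and wild-type IPs did not overlap for either gene, while the inputs of COX1 overlapped and those of ND5 were all lower in *hrde-2*.

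ND1 had the weakest of the calls, 1.18 ± 0.50 (adjusted p = 0.046 in edgeR's test), and its folds of 19, 10.1 and 7.43 in *hrde-2* overlapped those of 64.3, 14.6 and 31.3 in wild-type. The longer rRNA WBGene00014472 had an interaction of 1.18 ± 0.35 (adjusted p = 0.0074), with folds of 23.5, 22.3 and 16.9 in *hrde-2* and 77.8, 32.2 and 65.4 in wild-type. The tRNA genes WBGene00014471 and WBGene00014456 had interactions of 1.71 ± 0.45 and 1.68 ± 0.61 (adjusted p = 0.0037 and 0.024 in edgeR's test). The folds of WBGene00014456, 22.1, 52.1 and 18.4 in *hrde-2* and 398, 30.7 and 112 in wild-type, overlapped. The smallest fitted value, that of the tRNA WBGene00014453, rests on an IP at 0 counts in both genotypes and has no usable size.

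The count of 7 turned on the replicates used. It was 15 without replicate 2, 7 without replicate 1 and 1 without replicate 3, and 13 with the lysate as a block. For these alternatives the share of all tested genes called is not given here. The wild-type IPs of replicates 1 and 2 stood furthest apart in the mitochondrial share, at 0.0036 and 0.0158%. In the same interaction, nuclear RNA classes also had medians above the -0.07 of all tested genes. Higher and lower calls numbered 18 and 0 of 19 rRNA genes (median 1.73), 42 and 22 of 116 snRNA genes (0.92), 78 and 25 of 183 snoRNA genes (1.20) and 57 and 7 of 490 tRNA genes (1.03). Beside the 33.7% of all tested genes that were higher and the 36.1% that were lower, the share called higher was above the background for rRNA and snoRNA genes, near it for snRNA genes and below it for tRNA genes. The part of these RNAs in the result was not tested.

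**Figure D3:**
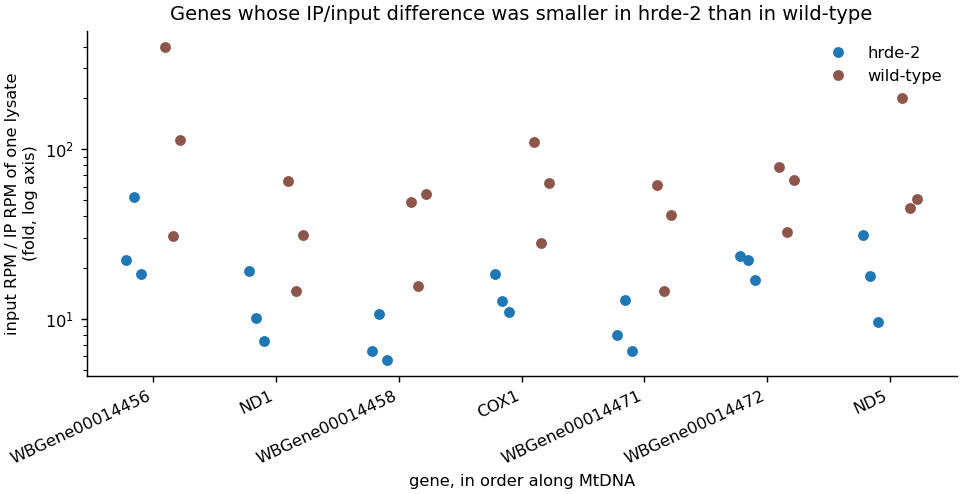
For the 7 genes called in the interaction, the input RPM divided by the IP RPM of each lysate is plotted on a log axis for *hrde-2* and wild-type, with 3 lysates each. The *hrde-2* points lie lower, without overlap for WBGene00014458 (5.72 to 10.6 in *hrde-2* and 15.6 to 54.6 in wild-type) and with overlap for ND1 and WBGene00014456.

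In *simr-1*, the IP difference was set against the same wild-type libraries, and 1 of 36 genes was called as more lowered, which is under the background of 22.1% of all tested genes, and none as less lowered, beside 9.3%. The gene was the tRNA WBGene00014466 (MtDNA:6450-6504), named after its values were seen, with an interaction of -1.96 ± 0.70 (adjusted p = 0.037 in edgeR's test). It had 2, 2 and 1 counts in *simr-1* IPs and 2, 5 and 3 counts in wild-type IPs, and it was called in 3 of 10 alternatives. The median over the mitochondrial genes was -0.82 with TMM scaling, where all tested genes had a median of -0.64, and -0.05 with library size alone, where all tested genes had a median of 0.22 and no mitochondrial gene was called. The fitted extremes were WBGene00014469 at -2.55 ± 1.43 and WBGene00014460 at 0.22 ± 0.68. With the lysate as a block, 5 genes were more lowered, and without replicate 1 there were 9, both without a share of all tested genes beside them. Without replicate 2 the median turned to 0.16 and 1 gene was less lowered.

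For *mut-2* against wild-type, no mitochondrial gene was called in the interaction with edgeR's test, where 9.71% of all tested genes were called lower and 28.3% higher. At the looser limit of an unadjusted p under 0.05 in edgeR's test, 2 were lower. DESeq2 called 3 as lower. No share over all genes is given here for either count. The fitted values ran from -2.11 ± 1.26 for WBGene00014452 to 0.91 ± 1.04 for WBGene00014470, with a median of -0.55, beside 0.43 over all tested genes. The block on the lysate gave 2 genes and leaving out replicate 1 gave 10, all more lowered in *mut-2*. A term for the library names that end in "-2" sets *mut-2* against wild-type replicate 2 alone, so only its median, -1.69, is given. Without replicate 2 the median turned to 0.30 and 1 gene was less lowered. The shares of all tested genes called in these alternative fits are not given here, so the counts have no background beside them.

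Against *mut-2*, neither double mutant had a called gene in edgeR's test. In *mut-2; hrde-2*, edgeR called 21.5% of all tested genes lower and 1.76% higher. At the looser limit of an unadjusted p under 0.05 in edgeR's test, 4 mitochondrial genes were lower, and DESeq2 called 1. No share over all genes is given here for either count. The fitted values ran from -2.76 ± 1.59 for WBGene00014457 to 0.86 ± 0.98 for WBGene00014463, and COX1 stood at 0.21 ± 0.24. In *simr-1 mut-2*, edgeR called 10.8% of all tested genes lower and 0.106% higher. At the same looser limit, 1 mitochondrial gene was lower in edgeR's test, and DESeq2 called 0, again with no share over all genes. The fitted values ran from -1.83 ± 1.98 for WBGene00014467 to 1.41 ± 2.00 for ND6. With scaling to the snRNA and snoRNA counts, 10 genes in *mut-2; hrde-2* and 9 in *simr-1 mut-2* were less lowered than in *mut-2*, with mitochondrial medians of 0.73 and 0.92 beside 1.08 and 0.85 over all tested genes. Leaving out replicate 1 gave 6 less lowered genes in *simr-1 mut-2*, and leaving out replicate 3 gave 2 more lowered ones in *mut-2; hrde-2*. Whether the *hrde-2* mutation acted differently in the wild-type and the *mut-2* background was not tested.

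The inputs themselves differed between genotypes, and most in *mut-2*. The mitochondrial share of the *mut-2* inputs was 3.30 times that of the wild-type inputs, at 1.71, 2.37 and 1.85% against 0.535, 0.621 and 0.645%. By class, the ratio was 3.60 for protein-coding genes, 2.67 for tRNA genes and 2.90 for rRNA genes, with no overlap of libraries in any class. In edgeR's test, 28 of 36 genes were higher in *mut-2* and 0 lower, where 6.93% of all tested genes were higher and 18.6% lower, and the adjusted p of the 28 ran from 1.4e-05 to 0.018. All *mut-2* inputs have library names ending in "-2", and of the wild-type inputs only replicate 2 does. A fit with a term for this ending sets the *mut-2* inputs against wild-type replicate 2 alone. It rests on 1 wild-type library, so no count of called genes is given for it. On RPM alone, 28 genes had every *mut-2* input above every wild-type input, beside 25.7% of all genes. In whole animals, more mitochondria or germ cells, more small RNA per mitochondrion and a loss of other small RNAs from the library cannot be told apart.

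All 12 protein-coding genes were higher in *mut-2* inputs, with a median log2 fold change of 1.85. ATP6 was at 453, 631 and 498 RPM in *mut-2* inputs, against 63.1, 120 and 113 RPM in wild-type inputs, a log2 fold change of 2.07 ± 0.28. COX2 was at 300.5, 599 and 546 RPM in *mut-2* inputs, against 94.6, 79.0 and 99.8 RPM in wild-type inputs, a log2 fold change of 2.07 ± 0.27. Neither gene overlapped between the genotypes. ND4L (2.13 ± 0.34), COX3 (2.05 ± 0.37) and ND3 (2.02 ± 0.29) rose by similar amounts, followed by ND4 (1.90), ND6 (1.80), CYTB (1.73), ND2 and COX1 (both 1.5), ND1 (1.49) and ND5 (1.14).

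Both rRNA genes rose as well, WBGene00014454 by 1.35 ± 0.32 and WBGene00014472 by 1.08 ± 0.24 on the log2 scale. Of the 22 tRNA genes, 14 were higher. The largest fold change was 2.42 ± 0.51 for WBGene00014462 (MtDNA:4330-4383), which had 6.89, 32.7 and 23.6 RPM in *mut-2* inputs against 4.53, 2.6 and 2.1 RPM in wild-type inputs. The tRNA genes with high levels WBGene00014451 (1.33), WBGene00014456 (1.15), WBGene00014458 (1.58) and WBGene00014455 (1.57) were among the 14. WBGene00014460 was not called, with 365, 435 and 235 RPM in *mut-2* inputs against 457, 141 and 293 RPM in wild-type inputs, which overlap (-0.11 ± 0.36). WBGene00014464 had the lowest fitted value, -0.27 ± 0.35.

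The shares of nuclear snRNA, snoRNA and rRNA genes were also higher in *mut-2* inputs, at 2.92, 2.21 and 2.37 times those in wild-type inputs with no overlap of libraries, while the share of nuclear tRNA genes, at 1.86 times, overlapped. By gene, higher and lower calls numbered 43 and 3 of 116 snRNA genes (median 0.80), 63 and 9 of 175 snoRNA genes (0.92), 3 and 0 of 19 rRNA genes (0.57) and 51 and 3 of 490 tRNA genes (0.05), beside 6.93% of all tested genes higher and 18.6% lower. Scaling to the snRNA and snoRNA counts changes the scale of a library and so moves every gene by about the same amount. The median went to -0.97 for all tested genes and to 0.57 for the mitochondrial genes, against -0.01 and 1.5 with TMM. Under this scaling, 7 mitochondrial genes were higher (ND3, ND4L, ATP6, COX2, COX3, WBGene00014462 and WBGene00014467) and 2 were lower, WBGene00014460 (-1.06) and WBGene00014464 (-1.19). How much of the rise is a loss of other small RNAs from the library was not tested.

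**Figure D4:**
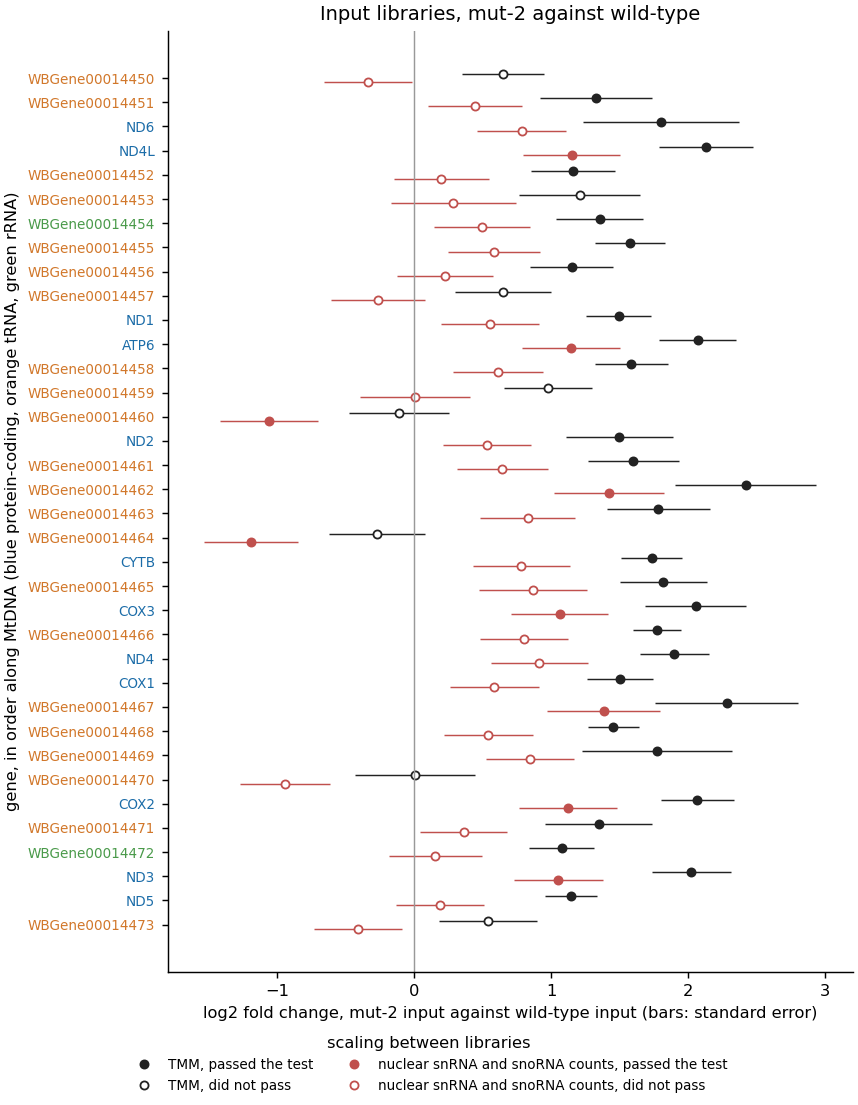
The log2 fold change of *mut-2* inputs against wild-type inputs is plotted for each of the 36 genes in their order along MtDNA, with its standard error, under TMM scaling and under scaling to nuclear snRNA and snoRNA counts, with filled points where the test was passed. The second scaling moves all points to the left, leaving 7 genes higher and 2 lower.

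Nuclear genes for mitochondrial proteins had smaller median changes in *mut-2* inputs. Of 69 genes for mitochondrial ribosomal proteins, 12 were higher and 2 lower, with a median of 0.68. Of 37 genes for respiratory chain and ATP synthase subunits, *nuo-3* was higher and *asb-2*, *asg-2*, *ucr-2.1*, *gas-1* and *cox-7C* were lower, with a median of 0.13. Over all tested genes, 6.93% were higher and 18.6% lower. These 6 genes were named after their values were seen.

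The inputs of the other single mutants were nearer to wild-type. In *hrde-2*, 5 of 36 genes were higher in edgeR's test and 0 lower, where 2.55% of all tested genes were higher and 5.86% lower, and the comparison used the wild-type inputs named above. COX2 was at 254, 114 and 146 RPM in *hrde-2* inputs, against 94.6, 79.0 and 99.8 RPM in wild-type inputs (1.06, adjusted p = 0.042). ND3 was at 65.1, 21.8 and 40.4 RPM in *hrde-2* inputs, against 21.3, 20.7 and 19.4 RPM in wild-type inputs (1.21, adjusted p = 0.045), and its smallest margin was that of replicate 2. The tRNA genes WBGene00014461 (1.62, adjusted p = 4.9e-04), WBGene00014452 (1.26, adjusted p = 0.034) and WBGene00014468 (1.09, adjusted p = 0.0048) were the others in edgeR's test, and WBGene00014468 was named after its values were seen. The count was 3 without replicate 1, 2 without replicate 3 and 9 without a filter on low counts. ND2 had the lowest fitted value (-0.18 ± 0.36). The share of all counts was 1.11 times that of wild-type, with overlap, and 11 genes had every *hrde-2* input above every wild-type input, beside 5.45% of all genes.

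In *simr-1* inputs, no gene was called by edgeR or DESeq2, where edgeR called 1.06% of all tested genes higher and 7.34% lower. At the looser limit of an unadjusted p under 0.05 in edgeR's test, 7 were higher, with no share over all genes given here. The mitochondrial share was 1.23 times that of wild-type without overlap, and 7 genes had every *simr-1* input above every wild-type input, beside 4.03% of all genes. The fitted values ran from -0.06 ± 0.34 for WBGene00014450 to 1.53 ± 0.69 for WBGene00014453.

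The double mutants were compared with the same *mut-2* inputs. In *mut-2; hrde-2*, 1 gene was lower and 0 higher in edgeR's test, where 2.61% of all tested genes were lower and 0.22% higher. It was the tRNA WBGene00014463, with 17.4, 26.3 and 16.7 RPM in *mut-2; hrde-2* inputs against 22.5, 55.6 and 41.9 RPM in *mut-2* inputs (-1.27 ± 0.28, adjusted p = 0.020). These values overlap, and the call was lost without replicate 2 and without replicate 3, while 4 genes were lower without replicate 1. The fitted values ran from -1.45 ± 0.43 for WBGene00014462 to 0.27 ± 0.14 for WBGene00014464. In *simr-1 mut-2*, no gene was called by edgeR or DESeq2, where edgeR called 3.37% of all tested genes lower and 1.63% higher. At the looser limit of an unadjusted p under 0.05 in edgeR's test, 5 were lower, with no share over all genes given here. The fitted values ran from -1.07 ± 0.68 for ND6 to 0.15 ± 0.23 for WBGene00014458. The count of called genes depended on replicate 1, which had the highest mitochondrial share of the *simr-1 mut-2* inputs (2.09%, and 1.48 and 1.3% in the others) and the lowest of the *mut-2* inputs (1.71%, and 2.37 and 1.85% in the others). Without replicate 1 of both genotypes, 22 genes were lower in *simr-1 mut-2*, with a median log2 fold change of -1.22. How many of all tested genes were lower in that fit is not given here. The parts of the 2 inputs of replicate 1 were not tested separately.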

How the data were processed

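The deposited tables hold expected counts per gene for each library, made by the authors with FASTX-Toolkit and Cutadapt 3.4 for trimming, Bowtie2 2.5.0 for mapping to *C. elegans* WS258 and featureCounts 2.0.1, in which a read overlapping several genes equally was divided between them. Strand was not used. Fractional values made up 10.4% of the values above 0, and 38.7% of those on the mitochondrial genes. RPM was computed here against all counts on genes of a library. Groups were taken from the sample labels. The tables of wild-type replicate 2 carry the number of replicate 1 in their headers, and the label was kept. Replicates are biological per the labels, and no 2 replicates of a group were near-identical.

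Biotypes and symbols came from Ensembl 115 (30911 of 31106 features) and RefSeq. Counts were rounded, and genes reaching 10 counts in 3 or more libraries were tested with edgeR 4.0.16 (TMM, quasi-likelihood F test, Benjamini-Hochberg over all tested genes) in R 4.3.3, after the fits were tested on simulated data. Calls needed a 2-fold change and an adjusted p of 0.05, with a mean of 10 RPM in the higher group except in interactions. Shares and sums over genes were not tested. The genes and lists were chosen with earlier results of these data known. Genes named in the text are all protein-coding and rRNA genes, the 5 tRNA genes with the highest mean RPM, any tRNA gene higher in an IP, and the largest and smallest fold change of each comparison; other names were chosen after their values were seen. A fold against a group at 0 counts was computed with each library set to 3 counts.

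Replicate numbers pair the IP and input of 1 lysate, and the deviations of such pairs from their group means had correlations of -0.003 to 0.523, with 16 of 18 above 0.1. The main fits of IP against input and of the interactions left this pairing out, and the lysate as a block was an alternative. Inputs of different strains that share a number had correlations of -0.434 to 0.403, with 1 of 15 above 0.1, and were not taken as paired. Alternatives were DESeq2 1.42.0, scaling by library size or by snRNA and snoRNA counts, no filter on low counts, each replicate left out, a replicate block, a term for library names ending in "-2", all 36 libraries in one fit, and a denominator without nuclear structural RNA.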

Additional observations from a re-analysis of the deposited data

Results flagged for a closer look

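The difference between IP and input differed between genotypes, by a test of the interaction itself, for 7 genes in *hrde-2* against wild-type and for 1 gene in *simr-1* against wild-type. The 7 genes are 19.4% of the 36, where 33.7% of all tested genes were called higher in *hrde-2*. The 1 gene is 2.78%, where 22.1% of all tested genes were called lower in *simr-1*. Both shares are below the background of the same fits, which had no term for the lysate that an IP and its input share. In these fits the counts do not set the mitochondrial genes apart. With the lysate as a block, the counts were 13 and 5, with no share of all tested genes beside them. In *hrde-2* the log2 interactions in edgeR's quasi-likelihood test were 1.68 for WBGene00014456, 1.18 for ND1, 2.02 for WBGene00014458, 1.66 for COX1, 1.71 for WBGene00014471, 1.18 for WBGene00014472 and 1.75 for ND5, all toward a smaller difference than in wild-type. Over 10 alternatives, WBGene00014458 was called in 10, COX1 in 9, WBGene00014471 in 8, WBGene00014456 and ND5 in 7, and ND1 and WBGene00014472 in 6. In *simr-1* the interaction of WBGene00014466 was -1.96, toward a larger difference than in wild-type, and it was called in 3 of 10 alternatives, with adjusted p from 0.014 to 0.42 in edgeR and DESeq2.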

How the results depend on the processing

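The number of mitochondrial genes lower in the IP was the same as reported under every alternative that kept all replicates. With 1 replicate left out it was 30 to 31 in *hrde-2*, 30 in *simr-1*, 34 to 35 in *mut-2*, 34 in *mut-2; hrde-2*, 31 to 35 in *simr-1 mut-2* and 28 to 30 in wild-type. The interactions and the comparisons of inputs were less stable, and the cause was not tested. Counts under the alternatives are given without the share of all tested genes called in the same fit, so they cannot be read against a background. Of 7 genes in the *hrde-2* interaction, snRNA and snoRNA scaling gave 11, DESeq2 4, the replicate block 13, a fit of all 36 libraries 3, and leaving out a replicate 1 to 15. For the 1 gene in *simr-1*, library size alone, snRNA and snoRNA scaling, DESeq2, the term for names ending in "-2" and the fit of all 36 libraries each gave 0, the replicate block 5, and leaving out a replicate 0 to 9 (9 lower without replicate 1, 1 higher without replicate 2). For 0 genes in *mut-2* against wild-type, DESeq2 gave 3, no filter 2, the replicate block 2, the fit of all 36 libraries 2, and leaving out a replicate 0 to 10. For 0 genes in *mut-2; hrde-2* against *mut-2*, snRNA and snoRNA scaling gave 10 higher, DESeq2 1, no filter 2, the replicate block 1, the fit of all 36 libraries 1, and leaving out a replicate 0 to 2, and for *simr-1 mut-2* snRNA and snoRNA scaling gave 9 higher and leaving out a replicate 0 to 6. Between inputs, the 5 genes in *hrde-2* became 2 with library size alone, 8 with snRNA and snoRNA scaling, 9 without a filter and 2 to 5 without a replicate. The 28 in *mut-2* became 9 with snRNA and snoRNA scaling (7 higher and 2 lower) and 22 to 30 without a replicate. With the term for names ending in "-2", only wild-type replicate 2 stands against *mut-2*. No count is given for that term in *mut-2*, between inputs or in the interaction. The 1 gene in *mut-2; hrde-2* became 0 with snRNA and snoRNA scaling, 2 with no filter, 2 with the replicate block, 0 in the fit of all 36 libraries and 0 to 4 without a replicate. The 0 in *simr-1 mut-2* became 2 with no filter, 1 with the replicate block and 0 to 22 without a replicate. No gene called in the main fit was called in the opposite direction under an alternative. Genes that only an alternative called went in both directions in some comparisons, as in the *simr-1* interaction. Between inputs of different strains the replicate number joins unrelated cultures. Without nuclear structural RNA in the denominator, the mean mitochondrial share of inputs was 0.889% in *simr-1*, 2.89% in *mut-2*, 2.19% in *mut-2; hrde-2*, 2.05% in *simr-1 mut-2* and 0.698% in wild-type. Scaling to miRNA counts was not run, since the tables list 1 miRNA gene. Depth limits the IP values, where wild-type replicate 1 had 588 mitochondrial counts over 36 genes.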
